A study of Mus musculus with 24 samples.

Results

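Cholesterol synthesis, uptake and trafficking genes were followed in mouse liver across fed and fasted animals of 2 genotypes. The set holds 31 genes, of which 20 encode enzymes of cholesterol synthesis and 11 act in cholesterol uptake, transfer or esterification, out of 37074 gene names on the array. Members were found by gene name among the non-control probes, and a gene with several probes was read by the probe with the highest mean log2 median signal over the 24 arrays. A probe was found for 30 of the 31 genes and 29 were tested, 19 of them synthesis genes and 10 uptake and trafficking genes, out of 21372 gene names tested. Acat2, a thiolase that makes acetoacetyl-CoA, had no probe under that name. Npc1l1, a sterol transporter of the intestine, was well above background on 1 of 24 arrays and was not tested.

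Cholesterol is built from acetyl-CoA in 3 stretches, which are the mevalonate pathway up to the farnesyl and geranylgeranyl units, the joining and cyclisation of squalene to lanosterol, and the conversion of lanosterol to cholesterol. Transcription of most of these enzymes is driven by SREBP2, a membrane-bound factor that is released from the endoplasmic reticulum by its escort SCAP when sterols are low and held there by the INSIG proteins when sterols are high. The liver is the main organ that makes cholesterol, takes it up from lipoproteins and secretes it into bile. After uptake, cholesteryl esters are split in the lysosome, free cholesterol is handed on by NPC2 and NPC1, carried between membranes by START-domain proteins, and re-esterified by the SOAT enzymes.

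Each array held liver RNA of 1 male mouse aged 12 weeks, killed at zeitgeber time 16, with 6 mice in each of 4 groups. In the groups labelled LWT (p110aLWT) both Pik3ca alleles were floxed and no Cre was present, and in the groups labelled LKO (p110aLKO) the same floxed alleles were combined with 1 albumin-Cre transgene, which acts in hepatocytes and leaves the other liver cells with p110α, the catalytic PI3K subunit encoded by Pik3ca. Fed mice ate ad libitum and fasted mice had no food for 24 h. All groups were thus floxed littermates and differed in Cre and in food.

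The 24 arrays lay on 3 slides of 8, with 2 arrays of every group on each slide. Between 54.7% and 63.0% of the probes were well above background on an array. The Pik3ca probe was not lower in LKO livers, since it was higher in the fed groups (log2 fold change 0.58 ± 0.11 SE, adjusted p = 0.00147) and not different by the test in the fasted groups (-0.02 ± 0.12 SE, adjusted p = 0.930). Whether this probe lies within the deleted exons was not examined, so "the livers labelled LKO" is meant wherever LKO is written. Mean correlations of an array with the others of its group ran from 0.988, in LKO_Fasted replicate 4, to 0.995.

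The stretch of DNA before the transcription start of 4 synthesis genes is shown because their RNA responded differently: Mvd fell the most with fasting, Idi1 and Hsd17b7 differed between fasted genotypes, and Hsd17b7 was the synthesis gene that rose. Hmgcs1 is the member whose window held a classical sterol regulatory element. The sequences are the 200 bases before the start, 5′ to 3′ in the direction of transcription, from RefSeq on GRCm38.p6. Capitals mark the sterol regulatory element searched here (TCACNCCAC, where N is any base) and the NF-Y box (CCAAT), on either strand.
Hmgcs1, chr13:119690151-119690350, plus strand: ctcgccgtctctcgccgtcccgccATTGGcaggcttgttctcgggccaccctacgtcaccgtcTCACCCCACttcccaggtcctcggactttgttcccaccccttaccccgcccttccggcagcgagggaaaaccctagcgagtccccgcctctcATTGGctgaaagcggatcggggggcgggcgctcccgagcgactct
Mvd, chr8:122443423-122443622, minus strand: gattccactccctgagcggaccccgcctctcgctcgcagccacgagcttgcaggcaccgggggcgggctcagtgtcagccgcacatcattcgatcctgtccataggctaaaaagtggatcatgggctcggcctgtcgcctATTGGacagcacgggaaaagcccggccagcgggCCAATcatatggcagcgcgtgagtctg
Idi1, chr13:8885406-8885605, plus strand: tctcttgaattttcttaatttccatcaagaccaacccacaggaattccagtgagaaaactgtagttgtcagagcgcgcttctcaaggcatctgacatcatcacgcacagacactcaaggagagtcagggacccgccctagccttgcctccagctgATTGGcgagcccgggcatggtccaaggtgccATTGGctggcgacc
Hsd17b7, chr1:169969206-169969405, minus strand: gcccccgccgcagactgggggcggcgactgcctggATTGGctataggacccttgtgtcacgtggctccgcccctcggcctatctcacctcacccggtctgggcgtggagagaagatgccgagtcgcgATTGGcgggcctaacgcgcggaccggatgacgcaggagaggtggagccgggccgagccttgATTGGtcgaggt

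The promoter table held a window for 24 of the 31 genes, namely 17 synthesis genes and 7 uptake and trafficking genes. In the 250 bases before the start, the NF-Y box CCAAT or its reverse ATTGG was found in 16 of the 17 synthesis genes and in 6 of the 7 others. Some genes have several windows, and counted by window it was in 16 of 20 and in 6 of 7, where 33.8% of all 32851 windows held it. Mvk carried 5 matches, the most among the members. The GC box (GGGCGG or CCGCCC) was found in 16 of 20 windows of synthesis genes and 4 of 7 of the others, against 32.7% of all windows. The E-box (CACGTG) was found in Hsd17b7, Sc5d and Dhcr7, against 6.02% of all windows. The sterol regulatory element in these letters was found in Hmgcs1 alone among the 24 genes, 137 bases before its start, and in 1.05% of all windows. A match is a description and not a bound site, and a window without a match says only that these letters are not there.

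**Figure D1:**
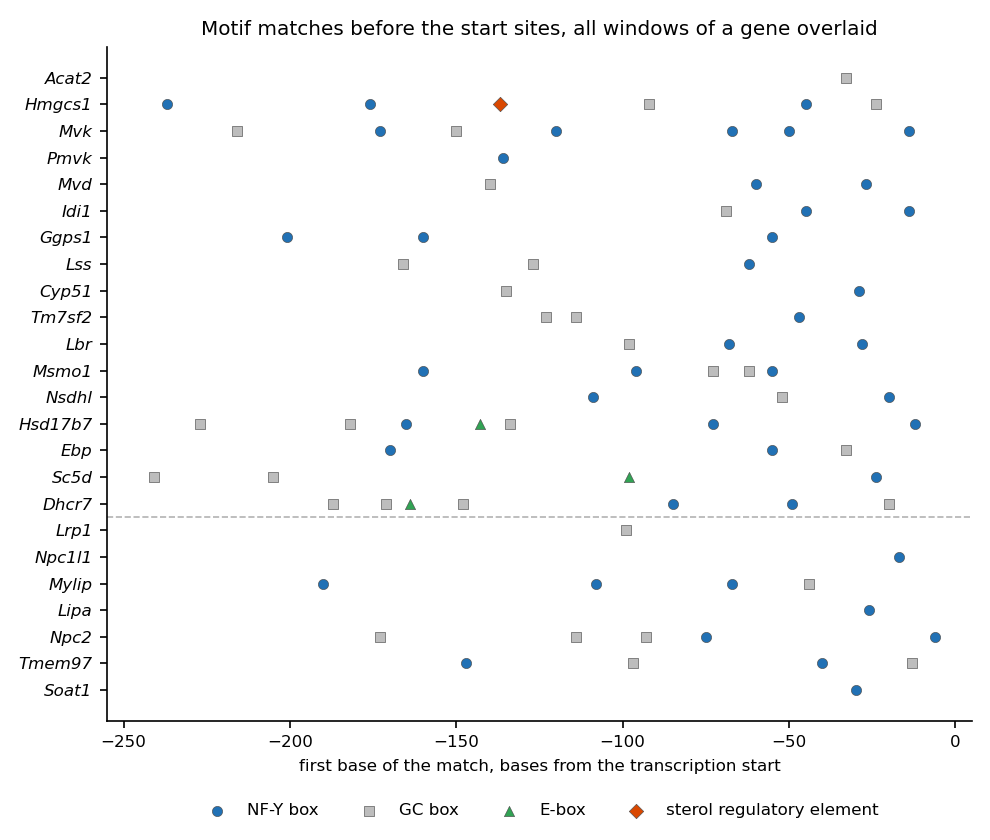
Distance of each motif match from the transcription start (x axis, bases) for the 24 genes with a RefSeq window (y axis), with synthesis genes above the dashed line and the windows of genes with several starts laid over each other. NF-Y boxes are seen in 22 of the 24 genes, and the sterol regulatory element in Hmgcs1.

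Fasting lowered nearly the whole synthesis pathway in LWT livers. Of the 19 synthesis genes tested, 17 fell with fasting (adjusted p at most 0.05, limma, two-sided), none rose, and Ggps1 and Hsd17b7 did not pass. Over all gene names 21.7% fell and 19.9% rose. The median log2 fold change of the 19 genes was -1.41, beside -0.01 over all genes, and 14 of the 19 changed by over 1.5-fold, beside 10% of all genes. The 6 fasted and 6 fed arrays did not overlap for 16 of the 19, beside 21.6% of all genes. In LKO livers 14 of the 19 fell and 1 rose, where 21.9% of all genes fell and 19.7% rose, and the median was -1.07 beside -0.02. There 12 passed the 1.5-fold rule, beside 12.8% of all genes, and 12 had groups that did not overlap, beside 22.2%. In whole liver, fewer cells of a type and less RNA per cell cannot be told apart.

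**Figure D2:**
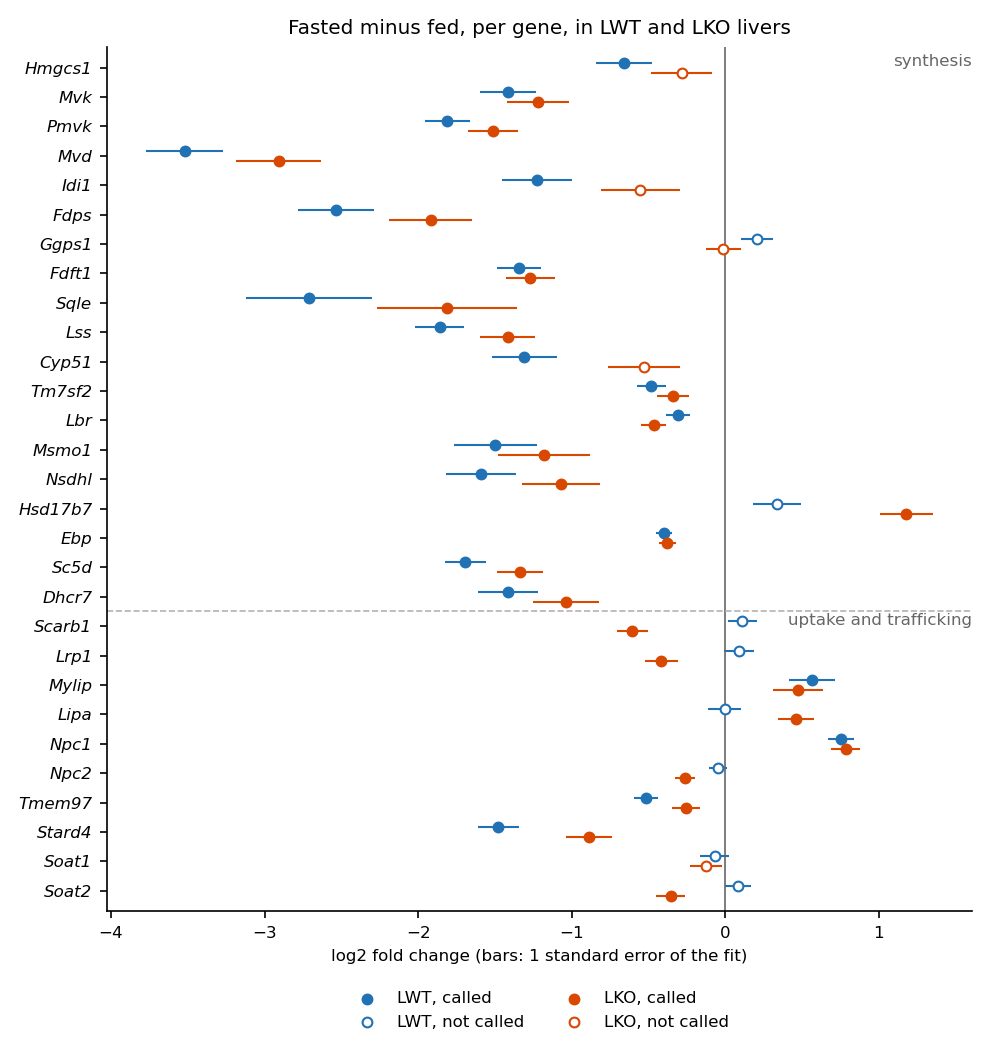
Log2 fold change of fasted over fed livers (x axis, bars 1 standard error of the fit) for each of the 29 genes tested (y axis, in pathway order), in LWT (blue) and LKO (orange), filled where the adjusted p was at most 0.05. The synthesis genes lie to the left of 0 down to -3.52 for Mvd in LWT, apart from Ggps1 and Hsd17b7, while the uptake and trafficking genes scatter to both sides.

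In the mevalonate pathway the steepest fall was that of Mvd, mevalonate diphosphate decarboxylase, read by a probe at chr8:124957750-124957809 (mm9, minus strand). Its normalized log2 signal ran from 11.02 to 12.35 in fed LWT livers (median 11.63) and from 7.61 to 8.53 in fasted LWT livers (median 7.97). In LKO livers it ran from 10.17 to 11.64 when fed (median 11.44) and from 7.77 to 9.20 when fasted (median 8.18). Fed and fasted arrays were thus far apart in both genotypes, and all 24 values were well above background. The fall was 11.5-fold in LWT (log2 -3.52 ± 0.25 SE, adjusted p = 3.74e-10) and 7.51-fold in LKO (-2.91 ± 0.28 SE, adjusted p = 2.08e-08).

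Fdps, which makes farnesyl diphosphate, fell next most in this stretch. Its signal in LWT was 15.76 to 16.35 when fed (median 15.92) and 12.53 to 14.14 when fasted (median 13.21), and in LKO 14.88 to 15.84 when fed (median 15.56) and 13.10 to 14.08 when fasted (median 13.41). The fed and fasted values did not meet in either genotype. The fall was 5.79-fold in LWT (log2 -2.53 ± 0.24 SE, adjusted p = 3.8e-08) and 3.78-fold in LKO (-1.92 ± 0.27 SE, adjusted p = 5.98e-06). Pmvk and Mvk, the kinases that phosphorylate mevalonate in turn, also fell in both genotypes, with log2 fold changes of -1.81 and -1.41 in LWT, beside -1.51 and -1.22 in LKO.

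Idi1, the isomerase that makes dimethylallyl diphosphate, and Hmgcs1, the cytosolic HMG-CoA synthase, fell in LWT and did not pass the test in LKO. Idi1 signal was 13.06 to 13.42 in fed LWT (median 13.25) and 11.26 to 12.69 in fasted LWT (median 12.08), with no overlap, and 13.13 to 14.03 in fed LKO (median 13.62) and 12.48 to 13.72 in fasted LKO (median 12.96), with overlap. The log2 fold changes of Idi1 were -1.23 ± 0.23 SE in LWT (adjusted p = 0.000183), against -0.55 in LKO (adjusted p = 0.0886). Those of Hmgcs1 were -0.66 ± 0.18 SE in LWT (adjusted p = 0.00566), against -0.28 in LKO (adjusted p = 0.273), with overlapping arrays in both. The fasting responses of the 2 genotypes were not shown to differ for either gene, since the test of that difference gave adjusted p = 0.247 for Idi1 and 0.440 for Hmgcs1. Ggps1, which makes geranylgeranyl diphosphate and leads away from sterols, had log2 fold changes of 0.20 and -0.01 and passed in neither genotype. Most of its other probes did rise with fasting in LWT, by 0.23 to 0.42, and another rose in LKO (0.36, adjusted p = 0.00108).

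All 3 genes of the stretch from farnesyl diphosphate to lanosterol fell in both genotypes. Sqle, squalene epoxidase, was read at chr15:59162688-59162747 (mm9, plus strand) and had signals of 13.20 to 14.13 in fed LWT (median 13.51) and 9.37 to 12.06 in fasted LWT (median 10.91). In LKO the signals were 12.59 to 13.96 when fed (median 13.46) and 10.76 to 12.65 when fasted (median 11.46). The fasted LWT arrays did not meet the fed ones and were the most scattered of any member gene and group (SD 1.27, n = 6). In LKO the highest fasted array lay above the lowest fed one. The fall was 6.54-fold in LWT (log2 -2.71 ± 0.41 SE, adjusted p = 1.64e-05) and 3.52-fold in LKO (-1.81 ± 0.45 SE, adjusted p = 0.00271). Lss, lanosterol synthase, had log2 fold changes of -1.86 in LWT, beside -1.42 in LKO, and Fdft1, squalene synthase, of -1.34 and -1.27, both with fed and fasted arrays that did not overlap.

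Of the 9 genes that turn lanosterol into cholesterol, 8 fell with fasting in LWT. In LKO 7 fell and Hsd17b7 rose. Sc5d, the sterol C5-desaturase, ran from 15.22 to 15.51 in fed LWT (median 15.31) and from 13.30 to 14.001 in fasted LWT (median 13.75), and from 14.30 to 15.38 in fed LKO (median 15.11) and 13.52 to 13.84 in fasted LKO (median 13.75). The groups stood clear of each other in both genotypes, and the fall was 3.23-fold in LWT (log2 -1.69 ± 0.14 SE, adjusted p = 2.59e-09) and 2.52-fold in LKO (-1.33 ± 0.15 SE, adjusted p = 2.8e-07). Nsdhl and Msmo1, which remove the C4 methyl groups, had log2 fold changes of -1.59 and -1.498 in LWT, beside -1.07 and -1.18 in LKO, and passed in both. Dhcr7, the last reductase of one branch, had -1.42 in LWT and -1.04 in LKO and passed in both. The falls were small for Ebp, the sterol isomerase (-0.40 and -0.38), Tm7sf2, a sterol C14 reductase (-0.48 and -0.34), and Lbr, the nuclear lamin B receptor with the same reductase activity (-0.31 and -0.47). Ebp, Tm7sf2 and Lbr passed in both genotypes all the same, with adjusted p of at most 0.0118.

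Cyp51, lanosterol 14α-demethylase, fell in LWT and did not pass in LKO. Its probe at chr5:4082122-4082181 (mm9, minus strand) gave 12.11 to 12.59 in fed LWT (median 12.33), 10.28 to 11.60 in fasted LWT (median 11.005), 11.87 to 12.89 in fed LKO (median 12.36) and 11.14 to 12.31 in fasted LKO (median 11.77). Fed and fasted LWT arrays did not overlap and those of LKO did. The log2 fold changes were -1.31 ± 0.21 SE (adjusted p = 3.62e-05) and -0.53 (adjusted p = 0.0761), and the difference between them did not pass (0.78, adjusted p = 0.140).

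Hsd17b7, the 3-ketosteroid reductase that acts beside NSDHL and MSMO1, went the other way from its neighbours. Its probe at chr1:171882591-171882650 (mm9, minus strand) gave 11.98 to 12.55 in fed LWT (median 12.17), 12.06 to 13.04 in fasted LWT (median 12.53), 11.93 to 12.79 in fed LKO (median 12.21) and 13.20 to 13.86 in fasted LKO (median 13.42). Each fasted LKO array was above every array of the other 3 groups. Hsd17b7 rose 2.26-fold with fasting in LKO (log2 1.18 ± 0.17 SE, adjusted p = 8.91e-06), while in LWT the value was 0.34 ± 0.16 SE (adjusted p = 0.0887). The 2 responses differed by 0.84 ± 0.23 SE on the log2 scale (adjusted p = 0.0293), in the same direction on all 3 slides. That call was held in 30 of 36 alternative analyses, and 4 of the 6 that lost it left out 1 LWT array each, namely LWT_Fed replicate 5 and LWT_Fasted replicates 1, 4 and 5 (adjusted p up to 0.0677). The other 2 left out LKO_Fasted replicate 5 or used no filter on dim probes. Here and below, the 36 do not include the 1.5-fold rule.

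**Figure D3:**
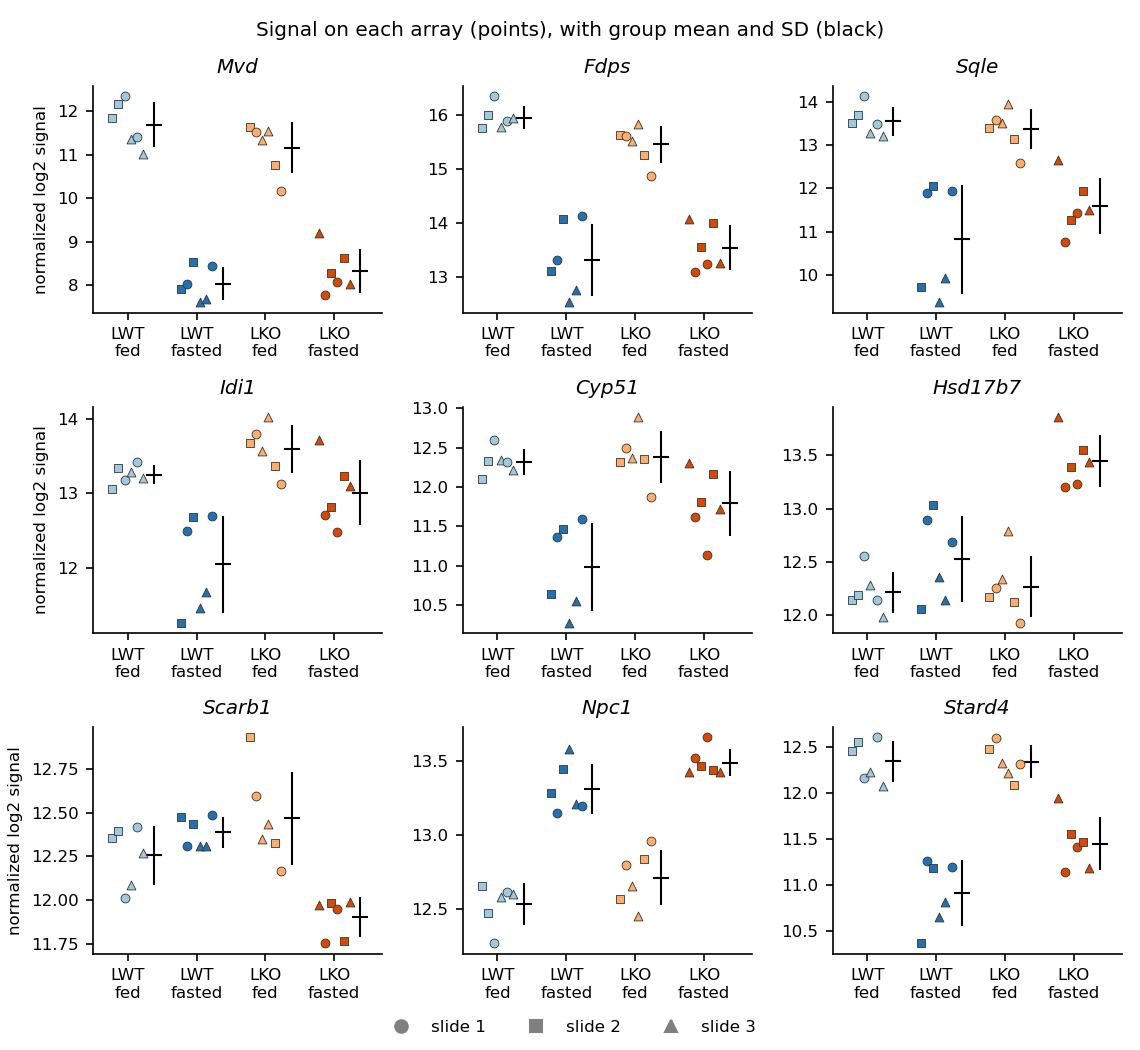
Normalized log2 signal (y axis) on each of the 24 arrays for 9 genes, by group (x axis), with the slide as the marker shape and the group mean and SD in black. Mvd and Fdps separate fed from fasted arrays in both genotypes, Hsd17b7 is high in the fasted LKO arrays (13.20 to 13.86), and Scarb1 is low in them (11.75 to 11.99).

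Averaged over the 19 synthesis genes, each array could be placed relative to the LWT fed mean of every gene. This mean ran from -0.17 to 0.27 in fed LWT arrays (median -0.04), from -1.78 to -0.92 in fasted LWT (median -1.31), from -0.52 to 0.33 in fed LKO (median -0.02) and from -1.32 to -0.58 in fasted LKO (median -1.09). The 12 fasted arrays thus all lay below the 12 fed arrays, by a small margin between LKO_Fed replicate 6 (-0.52) and LKO_Fasted replicate 1 (-0.58). Those same 2 arrays were extreme gene by gene, as LKO_Fed replicate 6 was the lowest of its group for 16 of 19 genes and LKO_Fasted replicate 1 the highest of its group for 14. LKO_Fed replicate 4 was the highest of its group for 15 genes and LWT_Fed replicate 3 for 13. Within fasted LWT the arrays lay at -1.78, -1.72 and -1.58 for replicates 4, 5 and 1, and at -1.04, -1.03 and -0.92 for replicates 6, 2 and 3. The gene-wise SD was largest in fasted LWT for 11 of the 19 genes and in fed LKO for 7.

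On each slide the fasted mean was below the fed mean, with differences of -1.14, -1.24 and -1.66 on slides 1, 2 and 3 in LWT and of -0.98, -0.82 and -0.99 in LKO. The difference between fasted LKO and fasted LWT was not the same on the 3 slides, being -0.19 on slide 1, 0.29 on slide 2 and 0.91 on slide 3. The difference between fed LKO and fed LWT ran the same way over the slides, at -0.34, -0.12 and 0.24. The part of the slide in these differences was not tested beyond the slide term of the fit.

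**Figure D4:**
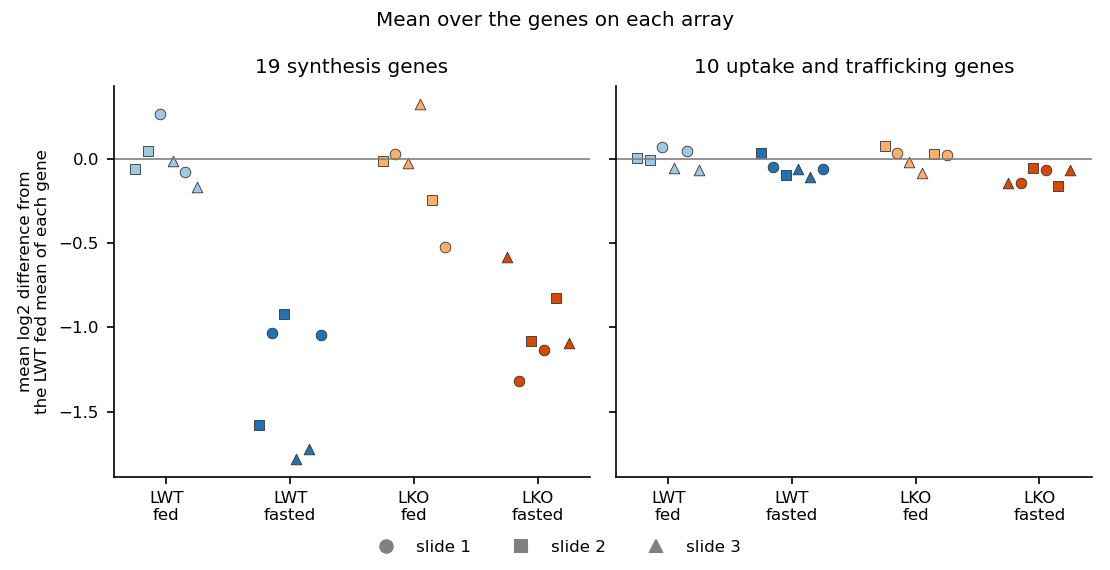
Mean log2 difference from the LWT fed mean of each gene (y axis), over the 19 synthesis genes (left) and the 10 uptake and trafficking genes (right), for each array by group (x axis) and slide (marker shape). The synthesis mean is at most -0.58 on all 12 fasted arrays and at least -0.52 on the fed arrays. The uptake and trafficking mean stays between -0.16 and 0.08 on all 24.

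The uptake and trafficking genes did not move as one. With fasting in LWT 2 of the 10 tested rose, 2 fell and 6 did not pass, with a median log2 fold change of 0.04, where 19.9% of all genes rose and 21.7% fell. In LKO 3 rose, 6 fell and 1 did not pass, with a median of -0.26, where 19.7% of all genes rose and 21.9% fell. Over 1.5-fold there were 2 in LWT and 3 in LKO, beside 10% and 12.8% of all genes. The mean over the 10 genes differed between groups by little, from -0.11 to 0.04 on the fasted LWT arrays and from -0.16 to -0.05 on the fasted LKO arrays.

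Stard4, a START-domain protein that moves cholesterol between membranes, was the trafficking gene that fell most. Its signal was 12.07 to 12.60 in fed LWT (median 12.34), 10.37 to 11.26 in fasted LWT (median 10.998), 12.09 to 12.60 in fed LKO (median 12.32) and 11.14 to 11.94 in fasted LKO (median 11.44). Fed and fasted arrays were separate in both genotypes, with a fall of 2.78-fold in LWT (log2 -1.48 ± 0.13 SE, adjusted p = 1.76e-08) and 1.85-fold in LKO (-0.89 ± 0.15 SE, adjusted p = 5.09e-05). Tmem97, an endoplasmic reticulum protein that binds NPC1, fell too, its log2 fold change being -0.52 in LWT (adjusted p = 2.51e-05), against -0.26 in LKO (adjusted p = 0.0262). The LKO call of Tmem97 was held in 28 of 36 alternatives and was lost, among others, without LKO_Fasted replicates 1 and 2 (log2 -0.20, adjusted p = 0.121).

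Npc1, the lysosomal membrane protein that exports cholesterol, rose in both genotypes. Its signal was 12.27 to 12.66 in fed LWT (median 12.59), 13.15 to 13.58 in fasted LWT (median 13.25), 12.45 to 12.96 in fed LKO (median 12.73) and 13.43 to 13.66 in fasted LKO (median 13.45). No fed array reached a fasted one, and the rise was 1.68-fold in LWT (log2 0.75 ± 0.08 SE, adjusted p = 3.14e-07) and 1.72-fold in LKO (0.78 ± 0.09 SE, adjusted p = 5.88e-07). The next brightest Npc1 probe, annotated to another transcript, gave 0.26 (adjusted p = 0.148) and 0.30 (adjusted p = 0.128), and a further probe gave 0.39 and 0.29 and did not pass either. Mylip, the ubiquitin ligase that marks lipoprotein receptors for degradation, rose by 0.56 in LWT (adjusted p = 0.00383), against 0.47 in LKO (adjusted p = 0.0241), on the log2 scale and with overlapping arrays. The LKO call of Mylip was lost without LKO_Fed replicate 4, without LKO_Fasted replicate 1, 2 or 6, and without replicates 1 and 2 together (adjusted p up to 0.0893).

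For the remaining genes that passed the fasting test in LKO and not in LWT, the difference between the genotypes was tested directly. Scarb1, the high-density lipoprotein receptor, was read at chr5:125757483-125757542 (mm9, minus strand) and had signals of 12.01 to 12.42 in fed LWT (median 12.31), 12.31 to 12.49 in fasted LWT (median 12.37), 12.16 to 12.93 in fed LKO (median 12.39) and 11.75 to 11.99 in fasted LKO (median 11.96). The fasted LKO arrays were below all 18 others. Scarb1 fell by 0.60 on the log2 scale with fasting in LKO (SE 0.10, adjusted p = 6.48e-05) and was 0.11 in LWT (adjusted p = 0.375). The responses differed by -0.71 ± 0.14 SE (adjusted p = 0.00349), in the same direction on all 3 slides. That call was held in 35 of 36 alternatives and was lost with the other Scarb1 probe (-0.53, adjusted p = 0.0807).

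Soat2, the hepatocyte enzyme that esterifies cholesterol, fell in LKO, with a log2 fold change of -0.36 (adjusted p = 0.00447) against 0.08 in LWT (adjusted p = 0.469). Its signals were 11.46 to 12.00 in fed LKO (median 11.71), 11.18 to 11.69 in fasted LKO (median 11.37), 11.60 to 11.94 in fed LWT (median 11.80) and 11.61 to 12.05 in fasted LWT (median 11.90). The ranges of fed and fasted LKO overlapped. The responses differed by -0.44 ± 0.13 SE (adjusted p = 0.0393), a call held in 17 of 36 alternatives and absent on slide 1, where the difference was 0.11.

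Lrp1, an endocytic receptor for lipoprotein remnants, fell by 0.42 on the log2 scale in LKO (adjusted p = 0.00339), with signals of 13.19 to 13.51 when fed (median 13.38) and 12.63 to 13.08 when fasted (median 13.01), which do not overlap. In LWT it was 12.93 to 13.89 when fed (median 13.08) and 12.76 to 13.51 when fasted (median 13.17), with a log2 fold change of 0.09 (adjusted p = 0.485). The difference of the responses was -0.51 ± 0.15 SE (adjusted p = 0.0354), was held in 18 of 36 alternatives and was 0.19 on slide 1. Both other Lrp1 probes, annotated to other transcripts, rose with fasting in LKO, by 0.43 (adjusted p = 0.0181) and 0.30 (adjusted p = 0.002), so the probes for this gene disagree in sign. Lipa, lysosomal acid lipase, rose by 0.46 in LKO (adjusted p = 0.0031) and had -0.005 in LWT (adjusted p = 0.978). Npc2, the soluble lysosomal carrier, fell by 0.26 in LKO (adjusted p = 0.00256) and had -0.05 in LWT (adjusted p = 0.546). The difference between the 2 responses did not pass for Lipa (0.47, adjusted p = 0.0761) or Npc2 (-0.21, adjusted p = 0.146). Soat1, the more widely expressed esterifying enzyme, passed in no comparison, with log2 fold changes from -0.13 to 0.10.

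Between fed livers of the 2 genotypes, 1 of the 29 genes tested was higher in LKO and 1 lower, while 8.81% of all genes were higher and 7.61% lower. No member passed the 1.5-fold rule, which 3.85% of all genes did, and the 2 groups did not overlap for 1 member, beside 8.65% of all genes. The median log2 fold change was -0.0004, with a range from -0.38 for Fdps to 0.39 for Msmo1. Some genes changed sign between slides, such as Mvd with -1.02, -0.81 and 0.25 on slides 1, 2 and 3 and Sqle with -0.73, -0.34 and 0.50. Ggps1 was higher in LKO, with signals of 9.29 to 9.63 (median 9.51) against 8.90 to 9.33 in LWT (median 9.10), by 0.36 ± 0.11 SE (adjusted p = 0.0256). Tm7sf2 was lower in LKO, with 14.38 to 15.04 (median 14.84) against 15.04 to 15.16 (median 15.15), by -0.31 ± 0.10 SE (adjusted p = 0.0323). The Ggps1 ranges met at their edges and those of Tm7sf2 just stayed apart, and the calls were held in 32 and 29 of 36 alternatives. Of the 5 other Ggps1 probes 1 passed in the same direction (0.24, adjusted p = 0.0119), 3 had values of 0.08 to 0.12 and 1 had -0.20 (adjusted p = 0.0824), none of the last 4 passing. Either call was lost on leaving out LWT_Fed replicate 2 or 5, with adjusted p of up to 0.116 and 0.0947. Ggps1 was also lost without LKO_Fed replicate 1 or 4, and Tm7sf2 without LWT_Fed replicate 1 or 6 or LKO_Fed replicate 5 or 6.

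Between fasted livers 3 synthesis genes were higher in LKO and none lower, out of 19, and 1 uptake and trafficking gene was higher and 2 lower, out of 10. Over all genes 9.99% were higher and 10.6% lower. Of the 29 members 3 passed the 1.5-fold rule, beside 4.06% of all genes, and 2 had groups that did not overlap, beside 8.68%. The median log2 fold change of the synthesis genes was 0.27, beside -0.004 over all genes. The fold change was above 0 for 17 of the 19, where 10511 of 21372 genes were above 0. These genes were read on the same mice and are not 19 separate readings. The higher ones were Idi1 (1.03 ± 0.25 SE, adjusted p = 0.00543), Hsd17b7 (0.97 ± 0.17 SE, adjusted p = 0.000335) and Cyp51 (0.91 ± 0.23 SE, adjusted p = 0.00732). As the levels above show, the fasted arrays of the genotypes did not overlap for Hsd17b7 and did for Idi1 and Cyp51.

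The slides did not give the same size of difference for Idi1, Cyp51 and Hsd17b7. On slides 1, 2 and 3 it was 0.0007, 1.06 and 1.84 for Idi1, -0.10, 0.93 and 1.60 for Cyp51, and 0.43, 0.93 and 1.40 for Hsd17b7. The count of 3 synthesis genes became 7 without LWT_Fasted replicate 3 and 6 without LWT_Fasted replicate 6, and it stayed at 3 without LKO_Fasted replicates 1 and 2. Sqle, whose fasted LWT arrays were the most scattered among the members, had a value of 0.85 that did not pass (adjusted p = 0.2001). Its slide values were -0.82, 0.72 and 2.42. Most of the synthesis genes were below 0 on slide 1, among them Fdps (-0.56), Msmo1 (-0.47) and Mvk (-0.45), so the count above 0 in the fit does not hold slide by slide.

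Among the uptake and trafficking genes, Stard4 was higher in fasted LKO than in fasted LWT (0.56 ± 0.15 SE, adjusted p = 0.00954), and Scarb1 (-0.51 ± 0.10 SE, adjusted p = 0.00109) and Soat2 (-0.48 ± 0.09 SE, adjusted p = 0.000915) were lower. The Scarb1 arrays of the genotypes did not overlap, whereas those of Stard4 and Soat2 did. On slides 1, 2 and 3 Stard4 gave 0.05, 0.73 and 0.83, Scarb1 gave -0.55, -0.58 and -0.33, and Soat2 gave -0.18, -0.51 and -0.63. Scarb1 and Soat2 kept their call in all 36 alternatives, and Stard4 in 35. The 36 do not include the 1.5-fold rule. The count of 3 became 5 under 6 alternatives, among them the authors' series matrix and the fit with no slide term, and 0 with the 1.5-fold rule.

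**Figure D5:**
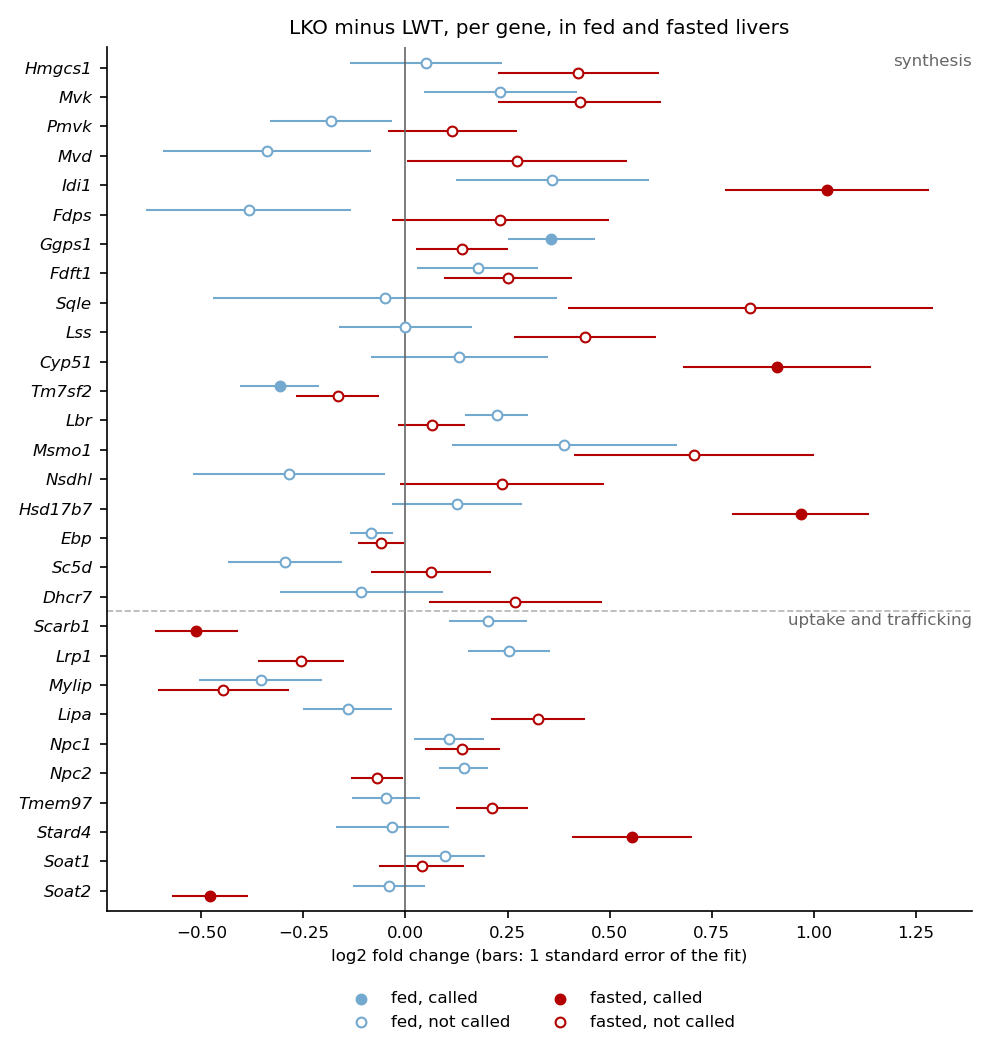
Log2 fold change of LKO over LWT (x axis, bars 1 standard error of the fit) for each of the 29 genes (y axis) in fed (light blue) and fasted (red) livers, filled where the adjusted p was at most 0.05. In fed livers the values lie between -0.38 and 0.39, and in fasted livers between -0.51 for Scarb1 and 1.03 for Idi1.

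Tested directly, the fasting response differed between the genotypes for 1 synthesis gene, Hsd17b7, and for 3 uptake and trafficking genes, Scarb1, Lrp1 and Soat2. Over all genes the response was higher in LKO for 4.13% and lower for 3.87%, and 3.10% passed with a difference over 1.5-fold, as Hsd17b7 and Scarb1 did. The median difference of the 19 synthesis genes was 0.37, and 17 of them were above 0, where 10624 of 21372 genes were. These genes were read on the same mice, so the count is not one of 19 separate readings. Each single synthesis gene other than Hsd17b7 had an adjusted p of at least 0.140. The fasting and genotype comparisons share arrays with each other, so these values are not independent of those above. Without LKO_Fasted replicates 1 and 2 the call held for Hsd17b7 and Scarb1, and was lost for Lrp1 and Soat2, whose adjusted p over all alternatives reached 0.911 and 0.1004.

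A second reading came from the other probes of the same genes, since 20 members were read by more than 1 kept probe. For called genes, the other probes had the same sign in 18 of 18 cases with fasting in LWT and 20 of 22 in LKO, and passed in the same direction in 16 and 18 of them. The exceptions in sign were the Lrp1 probes. For Sc5d the second probe had -2.30 in LWT and -2.44 in LKO, and for Nsdhl -2.47 and -2.28. That Sc5d probe was lower in fasted LKO than in fasted LWT (-0.40, adjusted p = 0.0251), where the brightest one gave 0.06. The other Hsd17b7 probes rose with fasting in LKO by 1.11 and 0.64, and both passed for the difference between the responses (adjusted p = 0.0322 and 0.0486). Of the 6 other probes of genes called for that difference, those 2 were the ones that passed, while the Scarb1 probe (adjusted p = 0.0807), the Soat2 probe (-0.36, adjusted p = 0.0973) and both Lrp1 probes (-0.05 and 0.18, adjusted p = 0.911 and 0.275) did not. The second Stard4 probe passed (0.52, adjusted p = 0.0222) where the brightest did not (0.59, adjusted p = 0.0776). Between fed genotypes 2 of 6 other probes passed in the same direction, and between fasted genotypes 6 of 6 did. For Ggps1, 4 of the 5 other probes rose in LWT, by 0.23 to 0.42, where the brightest probe had 0.20 and did not pass.

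The regulators of the pathway were read from a separate list of 4 genes. Srebf2, which encodes SREBP2, passed in no comparison, with fasting values of 0.05 in LWT (adjusted p = 0.715), against -0.10 in LKO (adjusted p = 0.448). Insig1, itself a sterol-responsive target, ran from 10.32 to 11.61 in fed LWT (median 11.04), 8.53 to 9.11 in fasted LWT (median 8.80), 9.77 to 11.50 in fed LKO (median 11.06) and 8.08 to 9.21 in fasted LKO (median 8.63). Fed and fasted arrays did not meet, and Insig1 fell 4.32-fold when LWT mice were fasted (adjusted p = 9.05e-08) and 5.22-fold when LKO mice were (adjusted p = 5.07e-08).

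Insig2, whose liver transcript is known to rise in fasting, went up from 13.49 to 14.16 (median 13.78) to 15.38 to 16.39 (median 15.73) in LWT, and from 12.88 to 13.39 (median 13.18) to 15.50 to 16.01 (median 15.94) in LKO. Again fed and fasted arrays were apart, by 3.82-fold in LWT (adjusted p = 5.49e-11), against 6.42-fold in LKO (adjusted p = 1.4e-12). Insig2 was lower in fed LKO than in fed LWT (-0.63 ± 0.12 SE, adjusted p = 0.00123), and the fasting responses differed by 0.75 ± 0.18 SE (adjusted p = 0.0124). Scap rose by 0.37 in LKO (adjusted p = 0.00532) and had -0.03 in LWT (adjusted p = 0.817).

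Of 8 genes on the branches that lead from farnesyl diphosphate to dolichol, ubiquinone and prenylated proteins, 4 fell and 1 rose with fasting in LWT, and 3 fell and 1 rose in LKO, where over all genes 21.7% fell and 19.9% rose in LWT, and 21.9% and 19.7% in LKO. Dhdds, a subunit of the enzyme that starts dolichol synthesis, fell in LWT and LKO (-0.48 and -0.64), as did Pdss1, which makes the ubiquinone side chain (-0.50 and -0.29). The median was -0.20 in LWT and -0.07 in LKO. Of 10 further genes of sterol transfer and lipoprotein receptors, 3 rose and 4 fell in LWT, and 1 rose and 3 fell in LKO, to be read against the same shares of all genes. Nceh1, a neutral cholesteryl ester hydrolase, rose 2.48-fold in LWT (adjusted p = 3.4e-08), against 4.32-fold in LKO (adjusted p = 1.02e-10), and was 2.04-fold higher in fasted LKO than in fasted LWT (adjusted p = 2.1e-05). Osbp, which exchanges sterol for phosphoinositide at the Golgi, fell in both genotypes (-0.64 in LWT and -0.55 in LKO). Lrpap1, the chaperone of the lipoprotein receptor family, was lower in LKO in fed (-0.25, adjusted p = 0.00311) and fasted livers (-0.41, adjusted p = 3.54e-05).

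Markers of the cells in the tissue were set beside these results, their counts to be read against the shares of all genes. With fasting 21.7% of all genes fell and 19.9% rose in LWT, and 21.9% and 19.7% in LKO. Between genotypes 7.61% were lower and 8.81% higher in fed LKO, and 10.6% and 9.99% in fasted LKO. Of 6 hepatocyte markers, Ttr passed in each of the fasting and genotype comparisons, from -0.17 with fasting in LWT to -0.41 in fasted LKO against fasted LWT, and the others in none. Their probes lie at the top of the signal range, where quantile normalization nearly fixes the values, so their sum is not given. Of 6 cholangiocyte markers 4 were lower in fed LKO and 3 in fasted LKO, with Spp1 at -1.5002 and -2.10. Their summed signal was 2289 to 3624 in fed LWT and 913 to 2025 in fed LKO, and 1920 to 2417 in fasted LWT and 643 to 1314 in fasted LKO, so the genotypes did not overlap. That sum rests mostly on the Spp1 probe, whose log2 signal was 10.63 to 11.45 in fed LWT and 8.75 to 10.44 in fed LKO. Of the other cholangiocyte markers only Cldn7 had genotype ranges that stayed apart, in both fed and fasted livers. Of 6 Kupffer cell markers none passed in any comparison, and their summed signal was 15401 to 71022.5 in fasted LKO and 15837 to 37090.5 in fasted LWT. Of 4 erythroid markers tested 1 was lower in LKO in each genotype comparison, and of 5 adipocyte markers Adrb3 was higher (0.51 in fed and 0.80 in fasted livers) and Cfd lower (-2.76 and -3.001). The log2 signal of Cfd ran from 6.71 to 9.79 in fed LWT, 6.19 to 12.35 in fasted LWT, 5.54 to 6.14 in fed LKO and 5.69 to 7.41 in fasted LKO, with overlap of the genotypes when fasted. Both of these marker lists also had 1 gene that fell with fasting in each genotype, Alas2 and Lep. Of 6 endothelial markers Lyve1 was lower in fed LKO (-0.88) and Pecam1 rose with fasting in LKO (0.37). Of 6 stellate cell markers Lrat fell with fasting in LWT and LKO (-0.90 and -0.96) and Dcn rose (0.25 and 0.25). With fasting, 1 cholangiocyte marker rose and 2 fell in each genotype, among them Krt19 (-0.67 and -0.59). Of 6 pancreas markers Prss2, Cpa1, Amy2b and Pnlip were not well above background on any array, and the 2 tested moved. Cela2a fell with fasting (-0.79 and -0.99) and was higher in LKO when fed and when fasted (0.82 and 0.63), and Ctrb1 fell with fasting in LWT (-0.28) and was lower in LKO in both states (-0.36 and -0.31). The part of these cells in the differences of the cholesterol genes was not tested.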

How the data were processed

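Liver RNA of 24 mice was labelled with Cy3 and hybridised to Agilent SurePrint G3 mouse arrays, 1 array per mouse, and the authors extracted spot values with Agilent Feature Extraction 10.10.1.1. The deposited scanner files give each spot's median signal as an intensity on a linear scale, and, per the file headers, flags for spots well above background. The deposited series matrix holds log2 values of 32595 probes and was used as an alternative. Spots flagged as non-uniform or as population outliers were left out, and the log2 median signals of repeated spots were averaged. Probes well above background on at least 5 of 6 arrays of a group were kept, which left 32197 with 46 missing values. The kept probes were then quantile-normalized. limma 3.58.1 (R 4.3.3) fitted the 4 groups with the slide as a term and array weights, over all 24 arrays. Benjamini-Hochberg adjustment ran over all kept probes, genes with an adjusted p up to 0.05 passed, and a stricter rule also asked for a change over 1.5-fold. Fold changes and SE are those of the weighted fit. Precision is limited by 6 mice a group. The fit was tested on simulated data. All members were named, with full values for those that passed. The members, motifs and gene lists were chosen with earlier results of these data known. Probe positions are on mm9 as the scanner files give them, and promoter sequences on GRCm38.p6.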

Additional observations from a re-analysis of the deposited data

Results flagged for a closer look

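Over the 29 genes and 4 groups, 116 sets of 6 arrays were examined for a single array that stood apart by Dixon's criterion, and 8 were found, where chance gives about 1 in 20. In LWT_Fed, replicate 3 was the highest array for Pmvk (15.03, next 14.57), Dhcr7 (12.17, next 11.33), Tmem97 (14.11, next 13.62) and Npc2 (12.28, next 12.06), and replicate 4 was the lowest for Tm7sf2 (15.04, next 15.13). LWT_Fed replicate 3 also had the lowest weight of its group in the fit. In LWT_Fasted, replicate 2 was the highest for Ggps1 (9.89, next 9.42) and replicate 1 for Npc2 (12.20, next 11.98). In LKO_Fasted, replicate 1 was the lowest for Lrp1 (12.63, next 12.98).

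The response to fasting differed between LKO and LWT by the test of that difference for 4 genes, with log2 differences of 0.84 for Hsd17b7, -0.71 for Scarb1, -0.51 for Lrp1 and -0.44 for Soat2. The causes were not tested.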

How the results depend on the processing

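Of 2052 values (57 called values under 36 alternatives), 1978 kept their call, 73 kept the direction and lost it, and 1 reversed, which was Lrp1 with fasting in LKO at 0.43 with the second-brightest probe. All 17 synthesis genes that fell with fasting in LWT did so under all 36 alternatives. The 36 do not include the 1.5-fold rule. A gene with 1 kept probe was read by that same probe under the second-brightest setting, which could not change its call. Among the 17 this holds for Mvd, Idi1, Fdps, Sqle, Lbr and Dhcr7. The causes of the changes below were not tested. Counts are of called genes. For uptake and trafficking genes between fasted genotypes, 3 became 5 with the processed signal, normexp background correction, the authors' series matrix, the filter on all arrays, no slide term or the slide as a random block, and 0 over 1.5-fold. For the difference in response, 3 such genes became 1, Scarb1, with no filter on dim probes, no array weights, the 1.5-fold rule, or without LKO_Fasted replicates 1 and 2 (chosen after seeing the data). With the second-brightest probe all 3 lost the call and the 1 gene called was another, Stard4. The 1 synthesis gene became 0 with no filter and 2, Hsd17b7 and Ggps1, with the second-brightest probe. Between fed genotypes, 2 synthesis genes became 1 with the processed signal and 0 over 1.5-fold, and 0 uptake and trafficking genes became 1 with the filter on all arrays. With fasting, 4 uptake and trafficking genes became 2 in LWT and 9 became 3 in LKO over 1.5-fold. Leaving out 1 array at a time gave, for synthesis genes, 17 to 18 (fasting in LWT), 15 to 17 (fasting in LKO), 0 to 3 (fed genotypes), 3 to 7 (fasted genotypes) and 0 to 2 (difference in response), and for uptake and trafficking genes 4 to 4, 7 to 9, 0 to 1, 3 to 4 and 1 to 4. What a shared replicate number stands for was not settled, and correlations of the deviations of same-numbered arrays ran from -0.18 to 0.28. With the replicate block the synthesis counts were 17, 15, 2, 3 and 1 and the others 4, 9, 0, 4 and 2, where Lrp1 lost its difference in response (-0.52, adjusted p = 0.0515).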
